A study of Sus scrofa domesticus with 6 samples.

Results

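The genes described here encode the fibroblast growth factors (FGFs), their receptors and co-receptors, and the inhibitors, phosphatases and transcription factors that FGF signalling switches on. They were taken by name from the deposited expression table, with the row of highest counts kept per name. The rule matched 39 of 25322 gene rows, each name once. The libraries come from the condyle of the lower jaw, the growing cartilage-capped end at the temporomandibular joint, in miniature pig embryos. The embryos were 85 days old in one group and 45 days old in the other, with 3 libraries per age, and the series asks how the condyle ossifies between them. No genotype, treatment or agent separates the groups, and the labels call the tissue cartilage and its source chondrocytes and osteocytes. They do not say whether libraries came from separate or pooled animals, so p-values measure only the spread between these libraries. In bulk tissue, fewer cells of a type and less RNA per cell cannot be told apart.

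FGFs bind receptor tyrosine kinases together with heparan sulfate or klotho proteins, and the adaptor FRS2 couples the receptors to the RAS-ERK cascade. ERK activity induces transcription factors of the PEA3 group (ETV1, ETV4 and ETV5) and a set of inhibitors, the Sprouty and SPRED proteins and the ERK phosphatases, which dampen the same cascade. In the mouse growth plate FGFR3 restrains chondrocyte proliferation, FGF18 and FGF9 are ligands of developing cartilage and bone, and FGF23 is made by bone cells as a hormone of phosphate balance.

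Total counts ran from 12546729 to 16559616 per library. Day 85 replicate 2 stood apart from its group: across genes its Spearman's rho with day 85 replicates 1 and 3 was 0.931 and 0.938, against 0.980 between those. Summed levels of 15 skeletal muscle markers were 37143, 2571 and 30822 CPM (counts scaled to library size, normalised between libraries by TMM) in day 85 replicates 1, 2 and 3, against 7825, 4046 and 9198 CPM at day 45. For 10 osteoclast markers the sums were 1882, 13461 and 2308 CPM at day 85, against 288, 1292 and 372 CPM at day 45. Of 13 chondrocyte markers, 10, 13 and 11 exceeded 1 CPM in the day 85 libraries and 13 did in each day 45 library. Their sums were 1942, 6858 and 3691 CPM at day 85, against 19188, 18145 and 15316 CPM at day 45. Sums of 9 macrophage markers were 358, 799 and 275 CPM at day 85, against 79.5, 152 and 122 CPM at day 45, and 4 of the 7 tested were called higher. The 11 endothelial, 8 mural and 3 adipocyte markers also summed higher in every day 85 library than in every day 45 library, with 7 of 11, 2 of 8 and 2 of 3 tested called higher, and 2 of 6 tested erythroid markers were called higher. FGF1, SPRY4 and DUSP4 likewise lay higher in every day 85 library. Of the tested osteoclast and skeletal muscle markers, 0 of 10 and 0 of 14 were called. Of the chondrocyte markers 3 of 13 were called, all lower. Sums of 7 tendon and fibrous markers were lower in every day 85 library than in every day 45 library, with 1 of 7 called lower. Of all genes tested, 3.90% were called higher and 2.66% lower. No marker with a row was at 0 in all libraries in any list. The part of these cell mixtures in the results below was not tested. Marker sums set beside a gene there are a description. Values without day 85 replicate 2 are given beside the members and lists whose calls it changes. Adjusted p-values of genes, unless named otherwise, are those of the edgeR quasi-likelihood test, corrected by Benjamini-Hochberg over every gene tested; fold changes are day 85 over day 45, and per-library values follow replicates 1, 2 and 3.

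At day 85 the ligand gene FGF1, the Sprouty gene SPRY4 and the ERK phosphatase gene DUSP4 were higher, by 2.48-fold to 2.89-fold. No member was called lower, and the 4 receptor genes did not pass the test. Of the 39 genes, 32 passed the low-count filter, and these 3 were called, 9.38% of those tested against 6.56% of all 15022 genes tested. In the upward direction 3.90% of all genes were called and in the downward direction 2.66%, 586 and 400 genes. Scaled by library totals alone, 437 genes were higher and 598 lower, while the same 3 members were called. Before adjustment, 8 members higher and 3 lower had a p under 0.05 in edgeR, and 29.1% of all genes passed in either direction. The 3 libraries of one age lay wholly above those of the other for 7 members higher and 5 lower at day 85, which held for 35.0% of all genes tested. The median log2 fold change of the tested members was -0.07, beside 0.02 over all tested genes. These counts are therefore no result about the family as a whole, and the values of single genes follow.

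The calls depended on the libraries used. Without day 85 replicate 2, 8 members were higher and 2 lower, where 12.3% and 10.0% of all genes were called. The additional higher members were DUSP6, SPRY1, KL, ETV4 and ETV5, and the lower ones FGF10 and FGF14. Without day 85 replicate 3 only DUSP4 was called, where 0.776% of all genes were. Without each of the other 4 libraries no member was called. Before adjustment, 5 or 6 members higher and 2 or 3 lower had a p under 0.05 in those edgeR fits. The same fits called few genes of any kind: 4, 0 and 14 higher and 0, 0 and 6 lower without day 45 replicates 1, 2 and 3. Without day 85 replicate 1, 13 genes were higher and 3 lower. With all 6 libraries DESeq2 called 6 members higher and 3 lower, where 12.2% and 10.5% of all genes with an adjusted p were called. Besides FGF1, SPRY4 and DUSP4 those were DUSP6, SPRY1 and ETV4, and the lower ones FGF10, FGF14 and IL17RD.

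**Figure D1:**
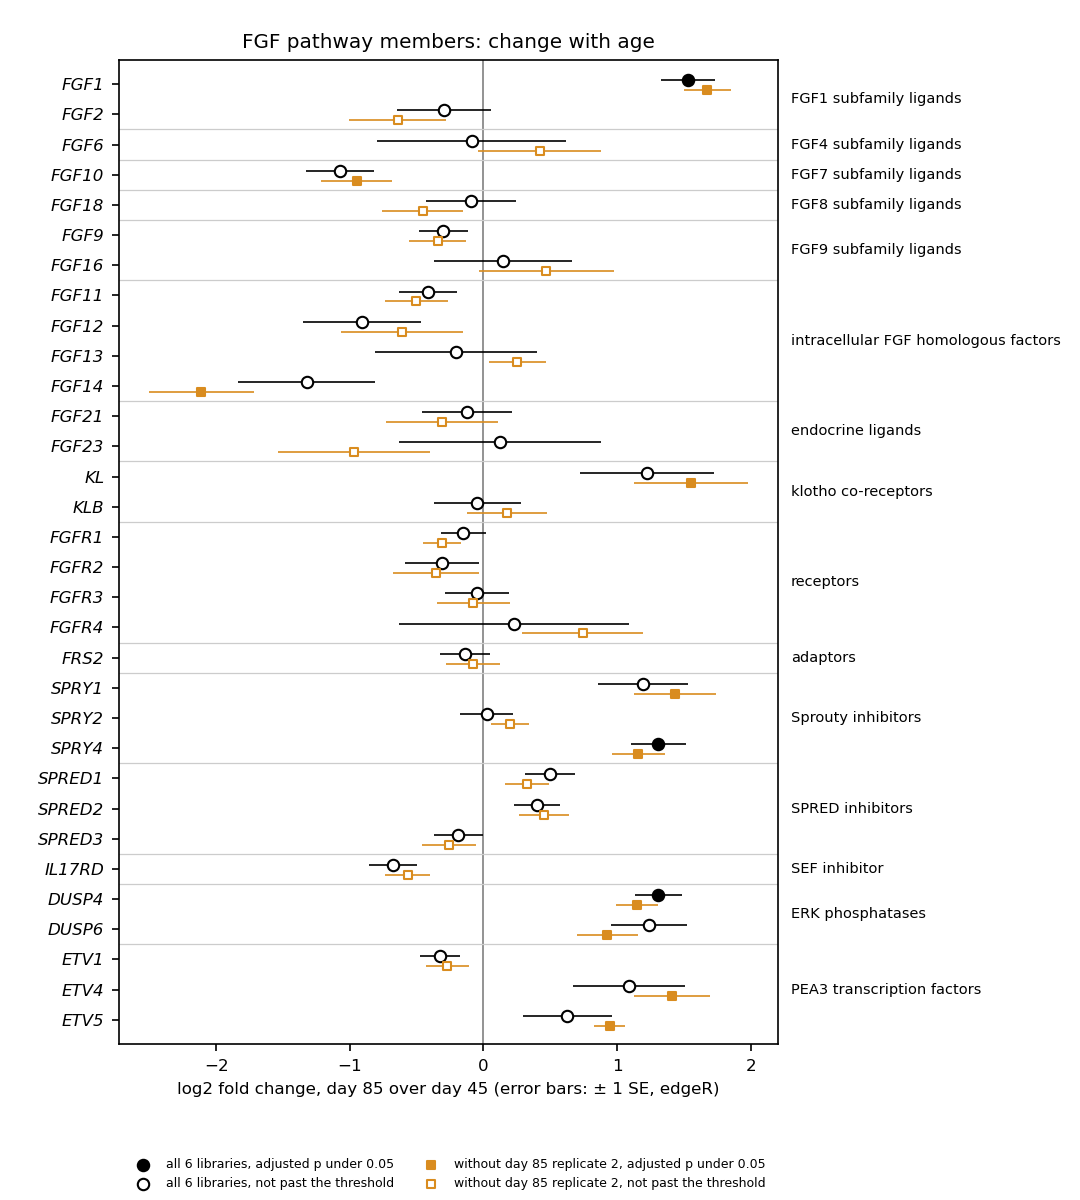
Log2 fold change of day 85 over day 45 for the 32 tested members, grouped by role. Circles show all 6 libraries and squares the fit without day 85 replicate 2. Bars are ± 1 SE derived from the edgeR F statistic, and filled symbols passed an adjusted p under 0.05. FGF1, SPRY4 and DUSP4 are the filled circles, at 1.31 to 1.53, and 10 squares are filled.

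FGF1, an acidic FGF that can bind every FGF receptor, stood at 48.2, 34.3 and 46.6 CPM at day 85 and at 11.9, 17.5 and 15.2 CPM at day 45. Its ages did not overlap, and the lowest day 85 value was that of replicate 2. FGF1 rose 2.89-fold, averaging 43.1 ± 7.61 CPM at day 85, against 14.9 ± 2.81 CPM at day 45 (SD, n = 3 each; edgeR log2 fold change 1.53, SE 0.20, adjusted p = 0.0200). The call held without day 85 replicate 2 (adjusted p = 0.00258) and ended when any other library was left out (adjusted p of 0.0549 to 0.110, log2 fold changes of 1.38 to 1.66). Per length, FGF1 had the highest mean over the 6 libraries among the paracrine ligands, at 13.3, 8.57 and 12.3 FPKM (fragments scaled to gene length and library size, as the authors deposited them) at day 85 against 3.14, 4.52 and 4.35 FPKM at day 45. At day 45 FGF2 lay above it, at 5.40, 5.51 and 4.59 FPKM, on a gene model whose implied length is only 291 bases. In counts FGF2, the other member of its subfamily, stood at 0.850, 1.73 and 1.05 CPM at day 85 and at 1.59, 1.66 and 1.24 CPM at day 45 (adjusted p = 0.609).

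The table places FGF1 on chromosome 2, from 150317384 to 150418060, in a genome build that the sources used here do not name. Its neighbour among the members is SPRY4, at 150066068 to 150066967, 250 kb away, and both were called higher. A like pair of ligand and Sprouty gene, FGF2 and SPRY1, lies 293 kb apart on chromosome 8. In that pair neither gene was called: the log2 fold changes were -0.30 with an SE of 0.35 for FGF2 and 1.19 with an SE of 0.33 for SPRY1. The SPRY4 row spans 900 bases, the same number that the deposited FPKM values imply as its length, so reads beyond this single stretch were not counted for it.

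FGF10, the mesenchymal ligand of the FGFR2 splice form found in epithelia, was at 8.81, 6.47 and 8.51 CPM at day 85 and at 14.1, 13.5 and 22.5 CPM at day 45. All day 85 values lay below all day 45 values, yet the gene missed the threshold (edgeR log2 fold change -1.07, SE 0.25, adjusted p = 0.0540), which it passed in DESeq2 (adjusted p = 0.000625). Without day 85 replicate 2 its log2 fold change of -0.95 passed (adjusted p = 0.0446), and without each of the others adjusted p was 0.106 or more.

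The ligands of developing cartilage and bone were low and did not pass. FGF18 had 3.48, 6.13 and 3.16 CPM at day 85, against 3.92, 3.75 and 5.95 CPM at day 45, with overlapping ages (edgeR log2 fold change -0.09, SE 0.34, adjusted p = 0.881). FGF9 had 4.48, 5.33 and 5.27 CPM at day 85, against 6.37, 6.42 and 5.82 CPM at day 45 (edgeR log2 fold change -0.30, SE 0.18, adjusted p = 0.317). The FGF9 ages did not overlap, with means of 5.03 ± 0.474 CPM at day 85 and 6.20 ± 0.330 CPM at day 45 (SD, n = 3 each). FGF16, of the same subfamily as FGF9, stood below 1 CPM in every library.

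FGF6, a ligand known from developing skeletal muscle, was at 1.00, 0.133 and 1.38 CPM at day 85 and at 1.04, 0.505 and 1.11 CPM at day 45 (adjusted p = 0.950). It was lowest in day 85 replicate 2 and next lowest in day 45 replicate 2, the libraries with the lowest muscle marker sums. FGF3, FGF17 and FGF20 had no count in any library, which at a floor of 3 counts over all libraries allows a level of up to 0.0337 CPM, counting error only. FGF4 and FGF19 did not pass the filter either. FGF4 had 1, 3 and 0 counts at day 85, against 6, 1 and 3 at day 45. FGF19, an endocrine ligand, had 0 counts at day 85, against 2, 0 and 0 at day 45.

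The intracellular FGF homologous factors are not secreted and are known for binding voltage-gated sodium channels. None of the 4 passed, and all had negative log2 fold changes, from -1.32 to -0.21. FGF11 had the highest deposited level per length of them, at 22.2, 32.6 and 36.7 FPKM at day 85 and at 36.8, 41.0 and 48.1 FPKM at day 45 (edgeR log2 fold change of the counts -0.41, SE 0.22, adjusted p = 0.256). Every day 85 value of FGF11 lay below every day 45 value, the nearest pair by a small margin. Its implied length is 678 bases. In mean CPM FGF13 lay above FGF11 at day 85 (23.6 against 21.1 CPM) and below it at day 45 (27.2 against 28.1 CPM). FGF14 had 0.928, 2.27 and 0.527 CPM at day 85, against 3.24, 2.52 and 3.60 CPM at day 45. It passed without day 85 replicate 2 (edgeR log2 fold change -2.11, adjusted p = 0.0128) but not with all libraries (-1.32, SE 0.51, adjusted p = 0.146), although DESeq2 called it with all of them (adjusted p = 0.0415). FGF13 was at 36.0, 5.93 and 28.9 CPM at day 85 and at 26.0, 21.9 and 33.8 CPM at day 45, so that replicate 2 was 5.48 times below the mean of day 85 replicates 1 and 3. FGF12 stood near or below 1 CPM throughout.

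FGF23, the phosphate hormone of bone cells, varied within each age. It was at 4.95, 14.3 and 1.65 CPM at day 85 and at 9.06, 6.49 and 3.60 CPM at day 45 (edgeR log2 fold change 0.12, SE 0.75, adjusted p = 0.931), and its direction turned without day 85 replicate 2 (-0.97, adjusted p = 0.265). That library also held the highest sum of 10 osteoblast markers, 83635 CPM against 47118 and 53446 CPM in day 85 replicates 1 and 3. At day 45 those sums were 43717, 50055 and 32044 CPM. Over the 6 libraries the Spearman's rho of FGF23 with the osteoblast sum was 0.257, and with the sum of 6 hypertrophic chondrocyte markers 0.886. The latter was the highest among the 13 marker lists, with the erythroid sum next at 0.771, and is given as a description. The part of any of these cells was not tested. Hypertrophic chondrocyte, osteoclast, macrophage and erythroid marker sums were highest in day 85 replicate 2 as well. DMP1, a matrix protein of osteocytes whose loss raises FGF23 in mice, peaked there too, with 693, 1909 and 510 CPM at day 85, against 366, 717 and 123 CPM at day 45 (adjusted p = 0.282). Of the 8 tested genes in the list of phosphate handling by FGF23, 0 passed in edgeR. At an unadjusted p under 0.05 in edgeR 4 were higher, where 15.8% of all genes were. DESeq2 called 3 of 11 higher, where 12.2% of all genes with an adjusted p were. When day 85 replicate 2 was left out, SLC20A2, a phosphate transporter gene, was called higher and the protease gene FURIN lower (adjusted p = 0.00515 and 0.0274). FGF21, an endocrine ligand known from the liver, stayed at or below 1.00 CPM in every library.

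Klotho, KL, the co-receptor that lets FGF23 signal through FGFR1, was at 2.71, 1.47 and 4.48 CPM at day 85 and at 0.918, 1.88 and 0.916 CPM at day 45. The ages overlapped through replicate 2 of each (edgeR log2 fold change 1.23, SE 0.50, adjusted p = 0.162), and KL passed without day 85 replicate 2 (1.55, adjusted p = 0.0402). KLB, beta-klotho, the co-receptor of FGF19 and FGF21, was at 3.56, 1.67 and 2.31 CPM at day 85 and at 2.39, 2.67 and 2.68 CPM at day 45 (adjusted p = 0.944). FGFBP1, which releases FGFs from the matrix, had no count at day 85 and 1, 0 and 4 counts at day 45.

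None of the 4 FGF receptor genes passed the test, and in each the ages overlapped. FGFR1, the receptor of mesenchymal and osteoblast-lineage cells, was at 306, 433 and 334 CPM at day 85 and at 354, 435 and 401 CPM at day 45 (edgeR log2 fold change -0.15, SE 0.17, adjusted p = 0.591). FGFR2, a receptor of osteoprogenitors and epithelia, was at 23.3, 38.7 and 46.6 CPM at day 85 and at 40.6, 55.9 and 38.1 CPM at day 45 (-0.31, SE 0.28, adjusted p = 0.492). FGFR3, the receptor of growth plate chondrocytes, was at 40.0, 56.4 and 65.9 CPM at day 85 and at 55.8, 69.3 and 42.9 CPM at day 45 (-0.05, SE 0.24, adjusted p = 0.913). The chondrocyte marker sum was at least 2.23 times lower in each day 85 library than in each day 45 library, and the FGFR3 values did not show that separation.

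FGFR4, a receptor known from myogenic cells, had the widest range of the receptors. It stood at 139, 10.7 and 93.2 CPM at day 85 and at 84.2, 31.4 and 91.9 CPM at day 45 (edgeR log2 fold change 0.23, SE 0.86, adjusted p = 0.883). Day 85 replicate 2 was 10.8 times below the mean of day 85 replicates 1 and 3. The order of FGFR4 over the 6 libraries was the same as the order of the summed skeletal muscle markers. FGFR4 was one of 2 such matches among 416 pairs of a tested member and a marker list, singled out after the values were seen and given as a description. Its log2 fold change was -0.42 at the lowest and 0.74 at the highest when a library was left out.

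**Figure D2:**
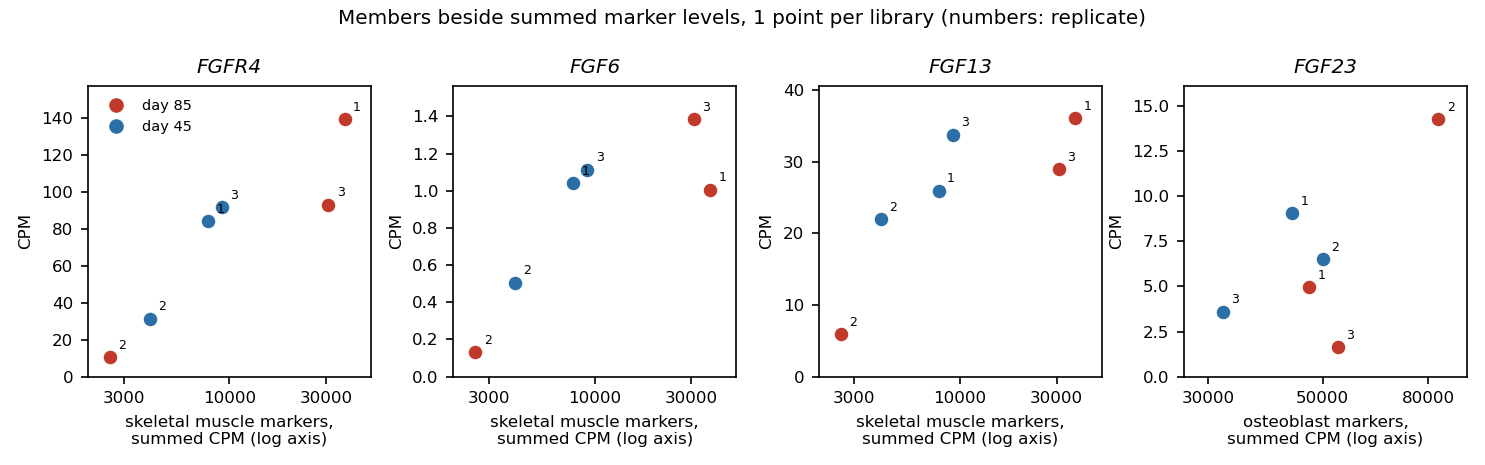
CPM of FGFR4, FGF6 and FGF13 against summed CPM of 15 skeletal muscle markers, and of FGF23 against 10 osteoblast markers (log x axes), 1 point per library, day 85 red and day 45 blue. In the first 3 panels day 85 replicate 2 is the lowest point on both axes, with FGFR4 at 10.7 CPM, and in the last it is the highest, with FGF23 at 14.3 CPM.

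Per length, the deposited values placed FGFR3 and FGFR1 close together. FGFR3 was at 24.9, 31.9 and 39.5 FPKM at day 85 and at 33.2, 40.5 and 27.8 FPKM at day 45. FGFR1 was at 25.6, 32.9 and 26.9 FPKM at day 85 and at 28.3, 34.2 and 35.0 FPKM at day 45. Which receptor led changed from library to library within each age, with an FGFR1 to FGFR3 ratio in FPKM of 1.03, 1.03 and 0.681 at day 85 and of 0.853, 0.844 and 1.26 at day 45. This order rests on the gene lengths behind the authors' values, which imply 12315 bases for FGFR1 and 1656 for FGFR3: in raw counts FGFR1 exceeded FGFR3 by 5.07 to 9.35 times.

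FGFR3 made up 30.5%, 41.8% and 41.7% of the summed FPKM of the 4 receptors at day 85 and 38.4%, 42.9% and 30.7% at day 45. The mean shares were 38.0% ± 6.50 at day 85 and 37.3% ± 6.20 at day 45 (SD, n = 3 each), a difference of 0.701 percentage points (exact two-sided permutation test, p = 1.0, where 0.1 is the smallest p possible). FGFR4 made up 30.2%, 2.26% and 16.7% at day 85 and 16.4%, 5.51% and 18.7% at day 45. The summed receptor level ran from 76.2 to 94.7 FPKM at day 85 and from 86.5 to 94.4 FPKM at day 45, so the ages overlapped in the sum as well.

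**Figure D3:**
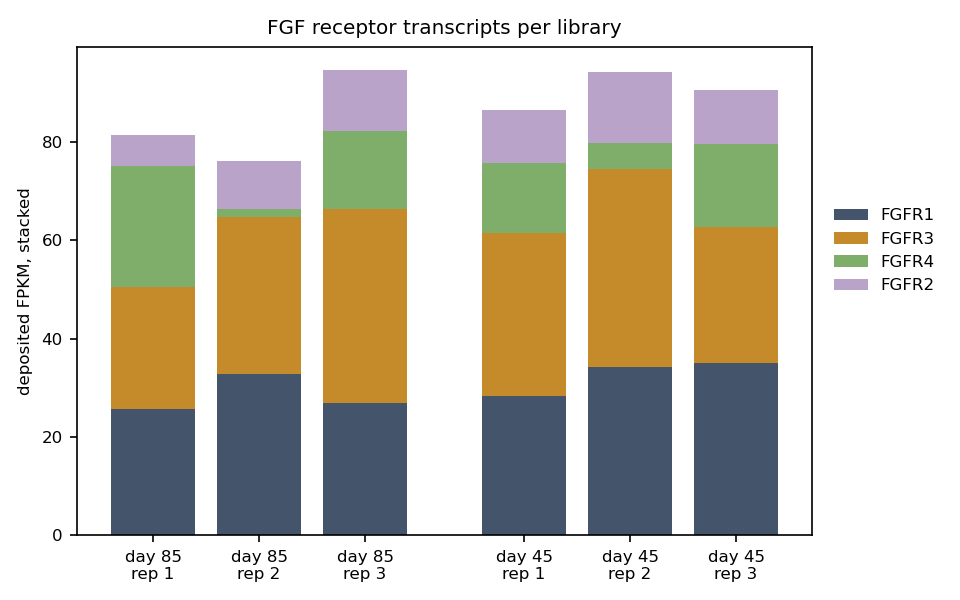
Stacked deposited FPKM of FGFR1, FGFR3, FGFR4 and FGFR2 in each library, day 85 left and day 45 right. Stack heights run from 76.2 to 94.7 FPKM, and the FGFR4 segment is smallest in day 85 replicate 2, at 1.72 FPKM.

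The adaptor FRS2 was at 8.35, 7.13 and 7.71 CPM at day 85 and at 7.41, 9.95 and 8.11 CPM at day 45 (edgeR log2 fold change -0.13, SE 0.19, adjusted p = 0.662). The span of the FRS2 row overlaps those of CCT2 and BEST3, and the strand setting of the counting is not given, so reads could be shared. CCT2 had 2332, 2177 and 2412 counts at day 85, against 3304, 2432 and 2895 at day 45, and BEST3 had 504, 18 and 344 counts at day 85, against 65, 20 and 74 at day 45. The part of either gene in the FRS2 values was not tested.

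Among the feedback inhibitors, SPRY4, a Sprouty protein that blocks RAS-ERK signalling downstream of receptors, stood at 11.7, 16.9 and 13.7 CPM at day 85 and at 4.90, 6.42 and 5.76 CPM at day 45. Its ages did not overlap, and the highest value was that of day 85 replicate 2. SPRY4 rose 2.48-fold, with means of 14.1 ± 2.65 CPM at day 85, against 5.69 ± 0.763 CPM at day 45 (SD, n = 3 each; edgeR log2 fold change 1.31, SE 0.21, adjusted p = 0.0259). The call held without day 85 replicate 2 (1.16, adjusted p = 0.0101) and was lost without any other library, with adjusted p from 0.0589 to 0.125. SPRY4 was the other match in library order, to the summed osteoclast markers; the part of the osteoclast share in its values was not tested.

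SPRY2, the Sprouty gene with the highest deposited level per length of all 39 members, had 50.6, 29.5 and 39.3 CPM at day 85, against 39.3, 40.7 and 37.5 CPM at day 45. The day 45 libraries lay within the day 85 range (edgeR log2 fold change 0.02, SE 0.20, adjusted p = 0.952), and its sign turned under upper-quartile and library-total scaling. The rank of SPRY2 per length rests on an implied length of 948 bases. In mean CPM it lay far below FGFR1, at 39.8 against 358 CPM at day 85 and 39.2 against 397 CPM at day 45. SPRY1 was low, at 2.63, 1.40 and 2.51 CPM at day 85 and at 0.980, 0.938 and 0.916 CPM at day 45, without overlap. It did not pass (1.19, SE 0.33, adjusted p = 0.0760), and did so without day 85 replicate 2 (adjusted p = 0.0197) and in DESeq2 (adjusted p = 0.0301). SPRY3 had at most 5 counts in any library and was not tested.

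DUSP4, a nuclear phosphatase of ERK and related kinases, is placed by the table on chromosome 15, from 62906029 to 62923416. It was at 34.3, 43.3 and 29.9 CPM at day 85 and at 15.5, 12.8 and 15.0 CPM at day 45, with every day 85 value above every day 45 value. DUSP4 rose 2.48-fold, with means of 35.8 ± 6.86 CPM at day 85, against 14.5 ± 1.42 CPM at day 45 (SD, n = 3 each; edgeR log2 fold change 1.31, SE 0.18, adjusted p = 0.0200). It held without day 85 replicates 2 and 3 in turn (adjusted p = 0.00515 and 0.0485), and was lost without each of the other 4 libraries, with adjusted p from 0.0589 to 0.110.

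DUSP6, the cytoplasmic ERK phosphatase, was at 12.8, 19.7 and 10.2 CPM at day 85 and at 7.04, 4.90 and 6.15 CPM at day 45. The ages did not overlap, and the gene lay just outside the threshold (edgeR log2 fold change 1.24, SE 0.29, adjusted p = 0.0518). It passed with RLE scaling (adjusted p = 0.0489), without the low-count filter (adjusted p = 0.0489), in DESeq2 (adjusted p = 0.000353) and without day 85 replicate 2 (0.93, adjusted p = 0.0298). DUSP4, DUSP6 and SPRY4 were each highest in day 85 replicate 2, whereas FGF1 was lowest there within its age.

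The SPRED proteins bind RAS regulators at the membrane and dampen ERK. SPRED1 had 11.8, 16.3 and 11.8 CPM at day 85, against 8.76, 9.45 and 9.94 CPM at day 45, and SPRED2 had 33.0, 25.5 and 24.5 CPM at day 85, against 21.7, 18.1 and 23.0 CPM at day 45. Neither passed, although in both genes the ages did not overlap (edgeR log2 fold changes 0.50 and 0.40, adjusted p = 0.137 and 0.176). SPRED3 was at 9.89, 9.93 and 7.52 CPM at day 85 and at 11.3, 10.4 and 9.49 CPM at day 45 (adjusted p = 0.522).

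IL17RD, also called SEF, a membrane protein that restrains FGF receptor signalling, had lower values at day 85. It was at 47.6, 36.4 and 45.7 CPM at day 85 and at 63.5, 84.5 and 59.4 CPM at day 45, with no overlap. The log2 fold change was -0.68 with an SE of 0.18, not past the threshold (adjusted p = 0.0689; adjusted p = 0.00274 in DESeq2). Of the 9 tested inhibitors and phosphatases, 7 had positive and 2 negative log2 fold changes, with a median of 0.50, where 7782 of all tested genes were positive and 7240 negative. Of the 9, 2 were called, both higher, or 22.2% against 3.90% of all genes. That share rests on 2 genes and is a description. Without day 85 replicate 2, 4 were called higher and 0 lower, where 12.3% and 10.0% of all genes were. Without each of the other libraries in turn, at most 1 of the 9 was called.

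**Figure D4:**
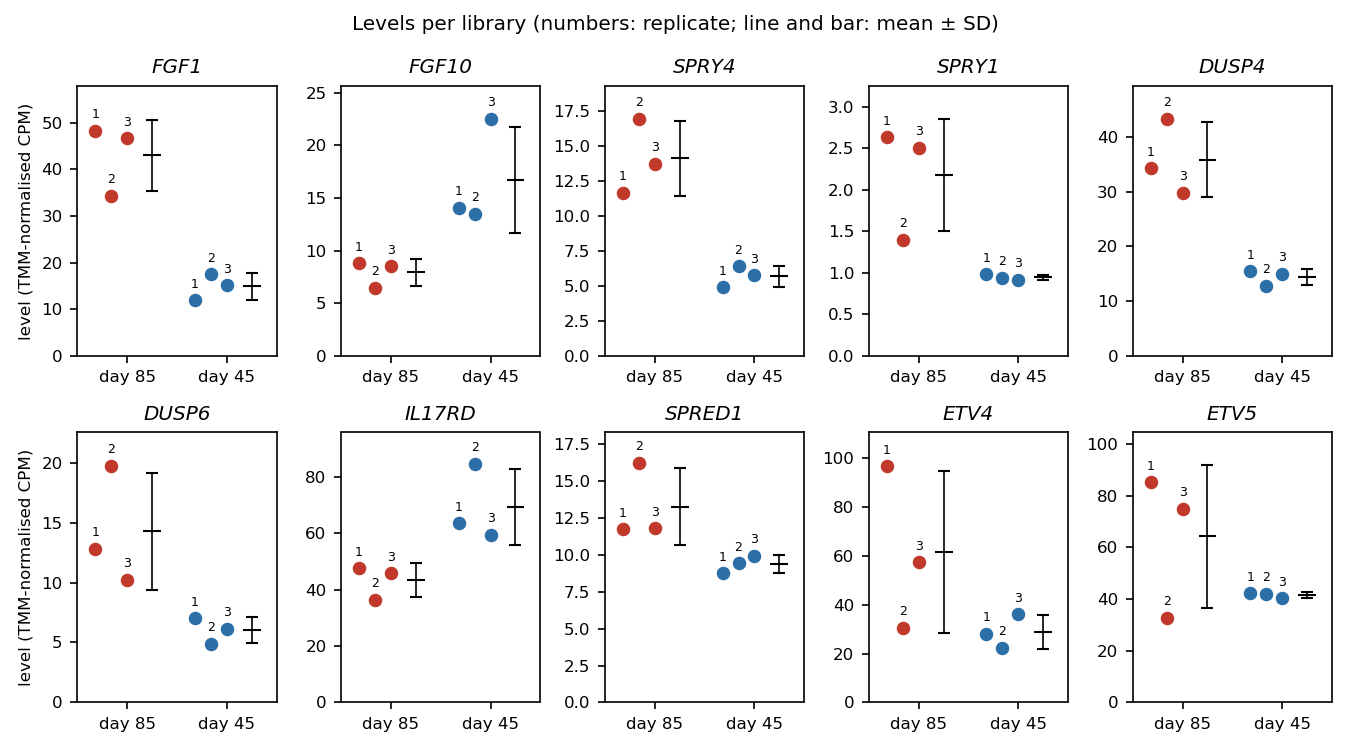
TMM-normalised CPM of 10 members in each library, day 85 red and day 45 blue, numbered by replicate, with the mean ± SD beside the points. The day 85 points lie above the day 45 points for FGF1, SPRY4, SPRY1, DUSP4, DUSP6 and SPRED1 and below them for FGF10 and IL17RD; ETV4 and ETV5 overlap through day 85 replicate 2, at 30.6 and 32.8 CPM.

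The PEA3 transcription factors ETV4 and ETV5, classical readouts of FGF signalling in embryos, split within day 85. ETV4 was at 96.7, 30.6 and 57.3 CPM at day 85 and at 28.0, 22.4 and 36.2 CPM at day 45 (edgeR log2 fold change 1.09, SE 0.42, adjusted p = 0.153; adjusted p = 0.0194 in DESeq2). ETV5 was at 85.2, 32.8 and 74.9 CPM at day 85 and at 42.2, 42.1 and 40.4 CPM at day 45 (0.63, SE 0.33, adjusted p = 0.261). In both genes day 85 replicates 1 and 3 lay above all day 45 libraries while replicate 2 lay within or below the day 45 range. Both passed without replicate 2, at log2 fold changes of 1.41 and 0.94 (adjusted p = 0.0195 and 0.00363). Skeletal muscle, endothelial and mural marker sums were each lowest in replicate 2 within day 85, at 2571, 1070 and 1117 CPM. Over the 6 libraries the Spearman's rho of ETV4 with these sums was 0.829, 0.943 and 0.943. For ETV5 the values were 0.829, 0.486 and 0.486. The part of any of these cells was not tested. ETV1 was at 30.4, 23.9 and 23.7 CPM at day 85 and at 31.4, 36.1 and 30.2 CPM at day 45 (-0.33, SE 0.15, adjusted p = 0.206). Replicate 2 of day 85 therefore had the highest SPRY4, DUSP4 and DUSP6 levels of its age together with the lowest ETV4 and ETV5 levels.

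Around the members, 7 lists of other pathway genes held 103 tested genes. Of these, 8 were called higher and 4 lower, beside 3.90% and 2.66% of all genes. At an unadjusted p under 0.05 in edgeR the shares of all genes higher and lower were 15.8% and 13.3%. Shares called were 12.3% and 10.0% without day 85 replicate 2, and 12.2% and 10.5% in DESeq2. In the list of ERK-responsive transcripts 4 of 19 tested genes were called higher and 0 lower, with 0 lower at an unadjusted p under 0.05 and in DESeq2, and a median log2 fold change of 0.62. Without day 85 replicate 2 the median was 0.33, with 4 called higher and 1 lower, the transcription factor gene MYC (edgeR log2 fold change -0.67, adjusted p = 0.0217), and 2 were lower at an unadjusted p under 0.05. The immediate early gene FOS was at 44.9, 134 and 150 CPM at day 85 and at 21.0, 19.4 and 14.1 CPM at day 45, and rose 6.02-fold (adjusted p = 0.0372). The ETS-family factors ETS2 and ETS1 rose 2.40-fold and 1.64-fold (adjusted p = 0.0181 and 0.0359), and the protease inhibitor gene TFPI2 rose 1.54-fold (adjusted p = 0.0451). FOS, ETS2, ETS1 and TFPI2 can respond to many signals besides FGFs. ETS1 is also expressed by endothelial cells, whose 11 markers summed to 1634, 1070 and 1211 CPM at day 85 and to 498, 403 and 656 CPM at day 45.

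Of 16 other negative regulators tested, 2 were called higher and 1 lower, where 3.90% and 2.66% of all genes were. Without day 85 replicate 2, 4 were called higher and 2 lower, where 12.3% and 10.0% of all genes were. DUSP1, an inducible phosphatase of stress and ERK kinases, was at 73.1, 75.9 and 68.6 CPM at day 85 and at 28.5, 25.9 and 26.6 CPM at day 45, and rose 2.69-fold (edgeR log2 fold change 1.43, SE 0.11, adjusted p = 0.00937). Its spread within each age was small, and day 85 replicate 2 did not stand apart. SH2B3, an adaptor that dampens cytokine receptor signalling, rose 1.47-fold (adjusted p = 0.0390), and LRIG3, a membrane protein of the LRIG family, fell 1.99-fold (adjusted p = 0.0287).

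In the RAS-ERK cascade, 1 of 19 genes was called: RPS6KA3, a kinase activated by ERK, rose 1.93-fold (adjusted p = 0.0438). Of all genes 3.90% were called higher and 2.66% lower. In that list 5 genes were higher and 1 lower without day 85 replicate 2, where 12.3% and 10.0% of all genes were. Among 9 receptor partners, 2 were called lower, and 3 without that library, where 2.66% and 10.0% of all genes were. NCAM1, an adhesion molecule that can bind FGF receptors, had 246, 259 and 264 CPM at day 85, against 384, 511 and 406 CPM at day 45, and fell 1.69-fold (adjusted p = 0.0372). LGALS1, which encodes the sugar-binding protein galectin-1, fell 2.34-fold (adjusted p = 0.0297).

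Heparan sulfate carriers hold FGFs at the cell surface and in the matrix. Of 13 tested, 1 was called higher and 1 lower. Before adjustment 3 higher and 6 lower had a p under 0.05 in edgeR, where 15.8% and 13.3% of all genes did. In DESeq2 the calls were 2 higher and 6 lower, where 12.2% and 10.5% of all genes with an adjusted p were called. When day 85 replicate 2 was left out, edgeR gave 1 higher and 5 lower, where 12.3% and 10.0% of all genes were called. HSPG2, which encodes perlecan of basement membranes and cartilage, was at 1020, 1410 and 1398 CPM at day 85 and at 598, 524 and 754 CPM at day 45, and rose 2.04-fold (adjusted p = 0.0398). AGRN, the gene of the basement membrane proteoglycan agrin, was at 333, 496 and 363 CPM at day 85 and at 697, 711 and 677 CPM at day 45, and fell 1.75-fold (adjusted p = 0.0465). Of 19 enzymes that make or trim heparan sulfate, 0 passed in edgeR (unadjusted p under 0.05 in 2 that were higher and 5 that were lower), and DESeq2 called 2 higher and 4 lower of 21. EXT2, a polymerase subunit and the enzyme gene with the highest deposited FPKM, was at 121, 173 and 140 CPM at day 85 and at 172, 191 and 193 CPM at day 45 (edgeR log2 fold change -0.36, adjusted p = 0.184). EXT2 was called lower without day 85 replicate 2 (-0.51, adjusted p = 0.0313), and in that fit 4 enzymes were called lower and 1 higher. Without day 85 replicate 2, 16 pathway genes were higher and 17 lower, and without each other library at most 3 were called.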

How the data were processed

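Condyle RNA was sequenced after removal of ribosomal RNA, with the second cDNA strand degraded, per the labels' protocols. The submitters' processing notes name HISAT2. Its version, and the build, annotation, counter and strand option used, are not named there or in the labels. The authors deposited whole-number read counts per gene and FPKM values of the same libraries, per the file headers. For 10748 genes with at least 50 counts in every library, FPKM equalled the count over the library total times a factor per gene, within 0.0018%.

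The titles gave each library's age. Counts were tested in R 4.3.3 with edgeR 4.0.16 (filterByExpr with a minimum count of 10, TMM, robust quasi-likelihood F test, age as the only factor), over all genes, and genes with an adjusted p under 0.05 were called. The SE given for edgeR was derived as the absolute log2 fold change over the square root of the F statistic. FPKM served to compare genes and for receptor shares, tested by exact permutation in scipy 1.17.1. Alternatives were other scalings and filters, DESeq2 1.42.0, limma-voom (limma 3.58.1), a replicate block and leaving out each library. Members with a called change, the receptors and the most abundant gene per role were to be described in full, with up to 4 called genes per pathway list. The members and lists were chosen with earlier results of these data known. A count of 1 is worth at most 0.0797 CPM.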

Additional observations from a re-analysis of the deposited data

How the results depend on the processing

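With 3 libraries per age the number of called genes depended on which libraries entered the fit. Leaving out each library in turn gave 0 to 1884 genes higher and 0 to 1528 lower against 586 and 400 with all. For the members it gave 0 to 8 higher and 0 to 2 lower against 3 and 0, and for the other pathway genes 0 to 16 higher and 0 to 17 lower against 8 and 4. Those fits have fewer samples. DESeq2 called 2052 genes higher and 1764 lower, 6 members higher and 3 lower, and 19 pathway genes higher and 15 lower. With library totals alone 437 genes were higher and 598 lower, and 5 pathway genes were higher. The cause of these differences was not tested.

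The replicate block left 217 genes lower (465 higher) and 2 pathway genes lower, and changed no call among the members. The numbers were not taken to pair the libraries: deviations of same-numbered libraries correlated at 0.013, 0.250 and 0.040, and replicate 1 of day 85 correlated best with replicate 3 of day 45.

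Of 32 tested members, 22 kept their direction in every fit. The other 10 were not called in any fit, and the cause of their turns was not tested. FGF23 was at -0.24 with the replicate block and at -0.29 in limma-voom, and FGFR4 at -0.23 and -0.28. SPRY2 was at -0.0048 with upper-quartile scaling, -0.0018 with library totals alone, -0.0078 with the replicate block and -0.014 in limma-voom. With a library left out, log2 fold changes ran from -0.65 to 0.25 for FGF13, -0.17 to 0.47 for FGF16, -0.45 to 0.15 for FGF18, -0.31 to 0.0022 for FGF21, -0.97 to 0.59 for FGF23, -0.68 to 0.42 for FGF6, -0.21 to 0.13 for FGFR3, -0.42 to 0.74 for FGFR4, -0.39 to 0.18 for KLB and -0.20 to 0.20 for SPRY2. The difference in FGFR3 share ran from -2.63 to 4.46 percentage points. In the 8 other settings FGF1, SPRY4 and DUSP4 kept their calls. At 1 CPM a library holds few counts, which limits FGF6, FGF12, FGF16 and FGF21.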

Other observations

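Among the names tried, FRS3 and FGFBP3 had a row whose symbol came only from a separate list of gene IDs, outside the naming rule used for the members. FRS3, an adaptor related to FRS2, was at 15.0, 12.1 and 14.4 CPM in day 85 replicates 1, 2 and 3, against 11, 11.9 and 14.2 CPM at day 45 (edgeR log2 fold change 0.17, SE 0.17, adjusted p = 0.546). FGFBP3, an FGF-binding protein gene, was at 0.618, 0.933 and 0.725 CPM at day 85, against 1.65, 0.938 and 2.03 CPM at day 45 (edgeR log2 fold change -1.01, SE 0.39, adjusted p = 0.145). FGF5, FGF7, FGF8, FGF22, FGFRL1 and FGFBP2 matched no row by name and were not analysed here.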
